A study of Mus musculus with 6 samples.

Results

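Oxidative phosphorylation runs on protein complexes of the inner mitochondrial membrane. Complexes I (NADH dehydrogenase) and II (succinate dehydrogenase, which is also an enzyme of the citric acid cycle) pass electrons to ubiquinone, complex III passes them to cytochrome c, complex IV (cytochrome c oxidase) passes them to oxygen, and complex V (ATP synthase) uses the proton gradient to make ATP. Most subunits are encoded in the nucleus and 13 are encoded in mitochondrial DNA, so a working complex needs products of both genomes. Astrocytes are known for a high rate of glycolysis and also carry out oxidative phosphorylation. The genes described here are the nuclear-encoded subunits, taken as the protein-coding genes whose symbols carry the stems of these complexes (Nduf with A, B, C, S or V and a number, Sdha to Sdhd, Uqcr, Cox4 to Cox8, and Atp5). Of 45777 genes listed, 86 carried such a symbol, and 84 of them had at least 1 read in all 6 samples. The 84 comprised 39 genes of complex I, 4 of complex II, 8 of complex III, 16 of complex IV and 17 of complex V. The 2 that did not qualify were Cox8c, which had no read in any sample, and Cox6a2, the muscle and heart form of subunit 6A, with 5, 8 and 9 reads in the vehicle samples and 9, 0 and 6 in the STZ samples.

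The RNA came from tdTomato-positive cells sorted from brains of male Aldh1l1 cre/ERT2; Rosa26-tdTomato fl/fl mice on a C57BL/6 background. All mice had received tamoxifen (75 mg/kg on 5 days) to switch on the reporter in cells that use the Aldh1l1 promoter, and at 8 weeks of age they were injected with vehicle (citrate buffer) or with streptozotocin (STZ, 150 mg/kg), which destroys insulin-producing beta cells and raises blood glucose. Brains were taken 21 days later, and each sample was a pool of 3 brains, giving 3 normoglycemic (vehicle) and 3 hyperglycemic (STZ) samples, so p-values measure the spread between these pools and not between single animals. STZ mice with raised blood glucose were selected, the reporter marks cells by Aldh1l1 promoter activity, and total counts ranged from 52529048 to 58749115 per sample.

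The 10 astrocyte markers checked (Aldh1l1, Aqp4, Slc1a2 and others) were all detected in every sample, with a summed level of 23682 to 27276 CPM (counts scaled to the library total) in the vehicle and 23934 to 26146 in the STZ samples. Their median log2 fold change (STZ minus vehicle) was -0.11, with 4 of 10 above 0. At an unadjusted p under 0.05 (edgeR) 1 was higher and 2 were lower, where 5.63% and 5.65% of all genes were. All 8 choroid plexus markers (Ttr, Kl, Folr1 and others) were detected as well, and their summed level was 5835, 16412 and 17147 CPM in vehicle replicates 1, 2 and 3 and 11404, 9213 and 15691 CPM in STZ replicates 1, 2 and 3. The 10 endothelial markers summed to 101 to 337 CPM in vehicle and 318 to 551 CPM in STZ samples, and the 9 pericyte and smooth muscle markers to 148 to 189 and 189 to 254 CPM. Neither list had a marker at 0. In such bulk samples, fewer cells of a type and less RNA per cell cannot be told apart.

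The subunit genes were among the most abundant transcripts of these cells. Together they held 2.84% to 3.52% of all TPM (a transcript abundance corrected for length and scaled to the same total in each sample) in a sample, beside 2.53% to 2.93% held by the 13 mitochondrially encoded subunits. Their median level was 132 FPKM (fragments scaled by transcript length and mapped reads, mean of the 6 samples), against 2.41 FPKM for the 22337 genes with a read in all samples. Of the 84, 69 lay above the 95th percentile of those genes, and 62 exceeded 100 FPKM.

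**Figure D1:**
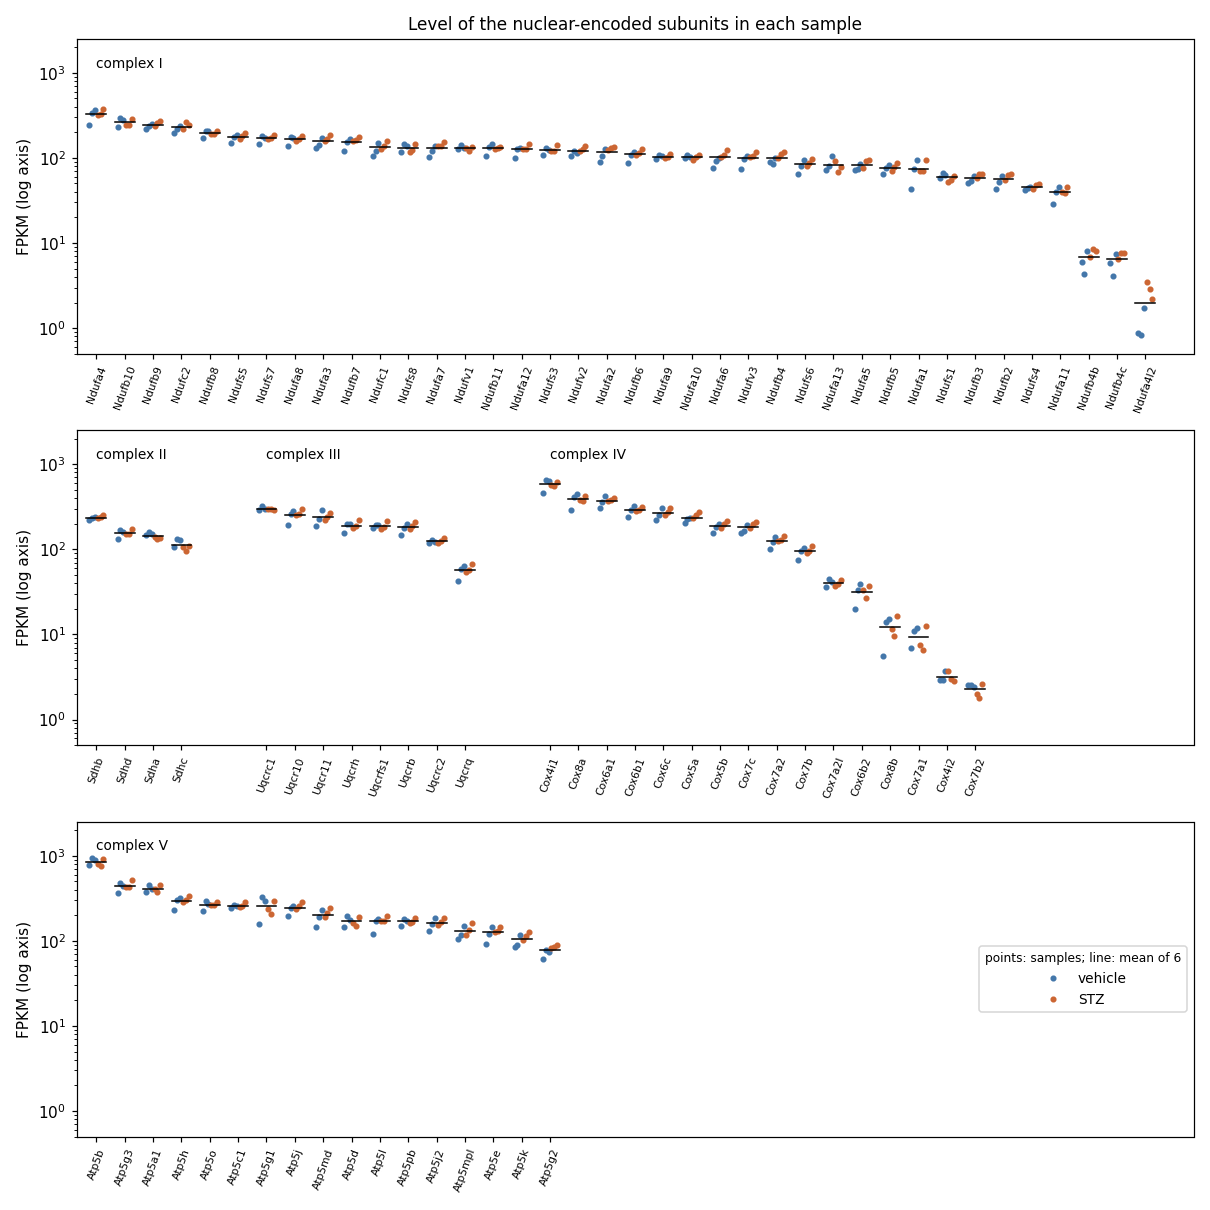
Level of 83 of the 84 subunit genes in FPKM (log axis) in the 3 vehicle (blue) and 3 STZ samples (orange), ordered within each complex by the mean of the 6 samples (black line). Most genes lie near or above 100 FPKM with the groups intermixed, and Ndufa4l2, Ndufb4b, Ndufb4c, Cox8b, Cox7a1, Cox4i2 and Cox7b2 lie far below.

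In complex V, Atp5b, the catalytic beta subunit, had the highest level of all members with a mean of 845 ± 76.1 FPKM (SD, n = 6), and Atp5a1, the alpha subunit that forms the catalytic ring with it, had 409 ± 35.8. The lowest in complex V was Atp5g2 at 78.3 ± 9.9 FPKM. Complex IV was led by Cox4i1, the common form of subunit 4, at 581 ± 67.8 FPKM, and ended with Cox7b2 at 2.31 FPKM. In complex III the core subunit Uqcrc1 was highest at 299 ± 11.1 FPKM and Uqcrq, a small subunit, was lowest at 57.4 ± 8.5. The genes of complex II stood close together, from 235 ± 10.7 FPKM for the iron-sulfur subunit Sdhb to 113 ± 13.9 FPKM for the membrane anchor Sdhc. In complex I the median was 118 FPKM, with Ndufa4 highest at 328 ± 47.4 and Ndufa4l2 lowest at 2.0 ± 1.1. Ndufa4 is named after complex I but is known to associate with complex IV, and it is counted here under its name.

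Several subunits have another gene with a more restricted expression in the body, and in each such pair the common gene prevailed in every sample. The FPKM of Cox4i1 was 155 to 224 times that of Cox4i2, the form known from lung and from oxygen sensing. Cox8a exceeded the muscle form Cox8b 25.5 to 51.9 times, Cox7a2 exceeded the muscle form Cox7a1 11 to 19.6 times, and Cox7b exceeded Cox7b2 29.9 to 53.3 times. Cox6b1 exceeded Cox6b2, a form known from testis, by a smaller ratio of 8.27 to 11.9. Cox7a2l, whose product is known as a supercomplex assembly factor rather than as a common subunit, stood 2.69 to 3.39 times below Cox7a2. None of these ratios separated the groups except that of Ndufa4 to Ndufa4l2, described below. The 3 genes Atp5g1, Atp5g2 and Atp5g3 encode the same mature c subunit of the ATP synthase rotor with different import sequences. Atp5g3 supplied 54.1% to 62.6% of their summed FPKM, Atp5g1 26.9% to 37.0% and Atp5g2 8.90% to 11.8%. The share of Atp5g1 was lowest in vehicle replicate 1 and next lowest in STZ replicate 2, with 28.5%.

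The comparison of STZ with vehicle asks whether sustained hyperglycemia was accompanied by a change in these transcripts. None of the 84 passed the threshold (adjusted p under 0.05 in edgeR's quasi-likelihood test and a fold change over 1.5), which 0.0224% of all 22337 genes tested passed. The smallest adjusted p among the members was 0.302 (edgeR), for Ndufa4l2. At an unadjusted p under 0.05, 2 members were higher in STZ and 3 were lower, where 5.63% and 5.65% of all genes were. The STZ samples lay wholly above the vehicle samples for 1 member and wholly below them for 3, where 8.64% and 9.85% of all genes did so. DESeq2 with a Wald test gave an adjusted p under 0.05 for 1 member, Ndufa4l2, and for 2.08% of the genes it adjusted. The fitted fold change was within 1.3 either way for 83 of the 84 genes, and for 75 the whole 95% interval lay within 1.5-fold either way. The members with wider intervals were Ndufa4l2, Ndufb4b, Ndufb4c, Ndufa1, Cox7b2, Cox7a1, Cox6b2, Cox8b and Atp5g1. The median log2 fold change was 0.04 over the members, with 52 above and 32 below 0, and 0.01 over all genes tested. The summed TPM of the members was 32017 ± 3107 (SD, n = 3) in vehicle and 32605 ± 2249 (SD, n = 3) in STZ samples, a difference smaller than either SD.

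**Figure D2:**
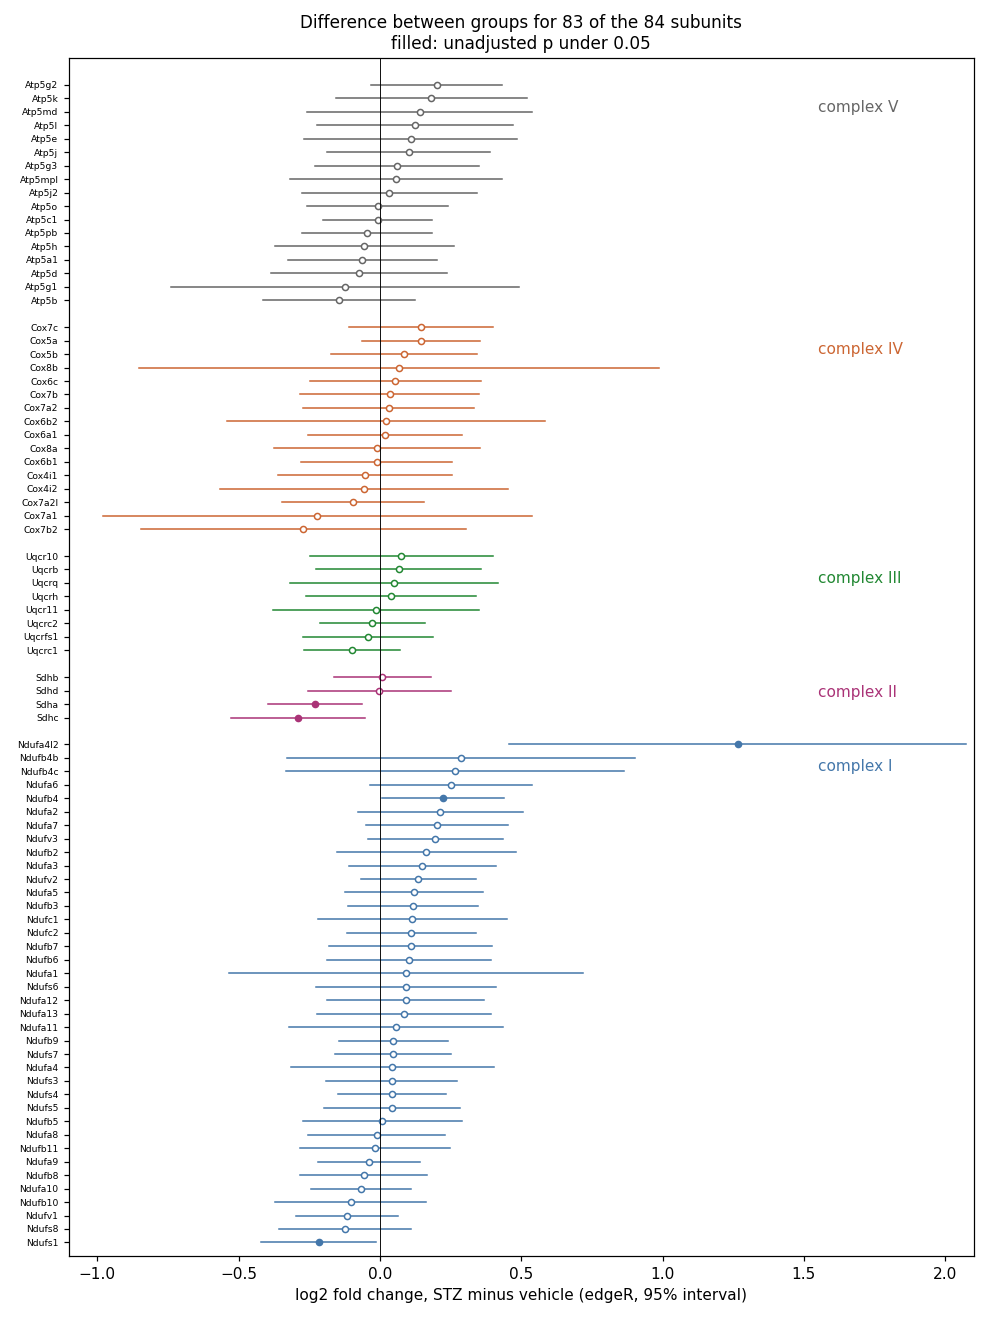
Log2 fold change (STZ minus vehicle, edgeR) of 83 of the 84 subunit genes with 95% intervals, grouped by complex, with filled points for an unadjusted p under 0.05. All but Ndufa4l2 lie between -0.29 and 0.29, and most of the intervals include 0.

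Of the 3 members lower in STZ at an unadjusted p under 0.05, 2 belonged to complex II. Sdha, the flavoprotein that oxidises succinate (chr13:74322255-74350240, GRCm38), had 463, 498 and 472 normalised CPM in the vehicle and 416, 393 and 414 in the STZ samples. Every STZ sample lay below every vehicle sample, and the log2 difference was -0.23 ± 0.07 (SE, unadjusted p = 0.0137, adjusted p = 0.339, edgeR). Sdhc, which anchors the enzyme in the membrane (chr1:171129157-171150640), had 138, 170 and 167 CPM in vehicle and 133, 119 and 137 in STZ samples. Its groups also did not overlap, but vehicle replicate 1 was only just above STZ replicate 3, and the log2 difference was -0.29 ± 0.10 (SE, unadjusted p = 0.0226, adjusted p = 0.374, edgeR). The other two subunits did not share this. Sdhb (chr4:140961271-140979198) had 258, 272 and 278 CPM in vehicle and 259, 266 and 288 in STZ samples, with a log2 difference of 0.01 and a 95% interval from -0.16 to 0.18. Sdhd, the other membrane anchor (chr9:50596340-50603849), had 185, 235 and 221 CPM in vehicle and 202, 204 and 234 in STZ samples, with a difference of 0.00 and an interval from -0.26 to 0.25. The normalised counts of Sdha relative to Sdhb were 1.79, 1.83 and 1.70 in vehicle and 1.6, 1.48 and 1.44 in STZ samples, again without overlap. Those of Sdhc relative to Sdhd were 0.748, 0.725 and 0.756 in vehicle and 0.661, 0.583 and 0.585 in STZ samples. These ratios were formed after the values of the genes had been seen, and they carry no test.

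**Figure D3:**
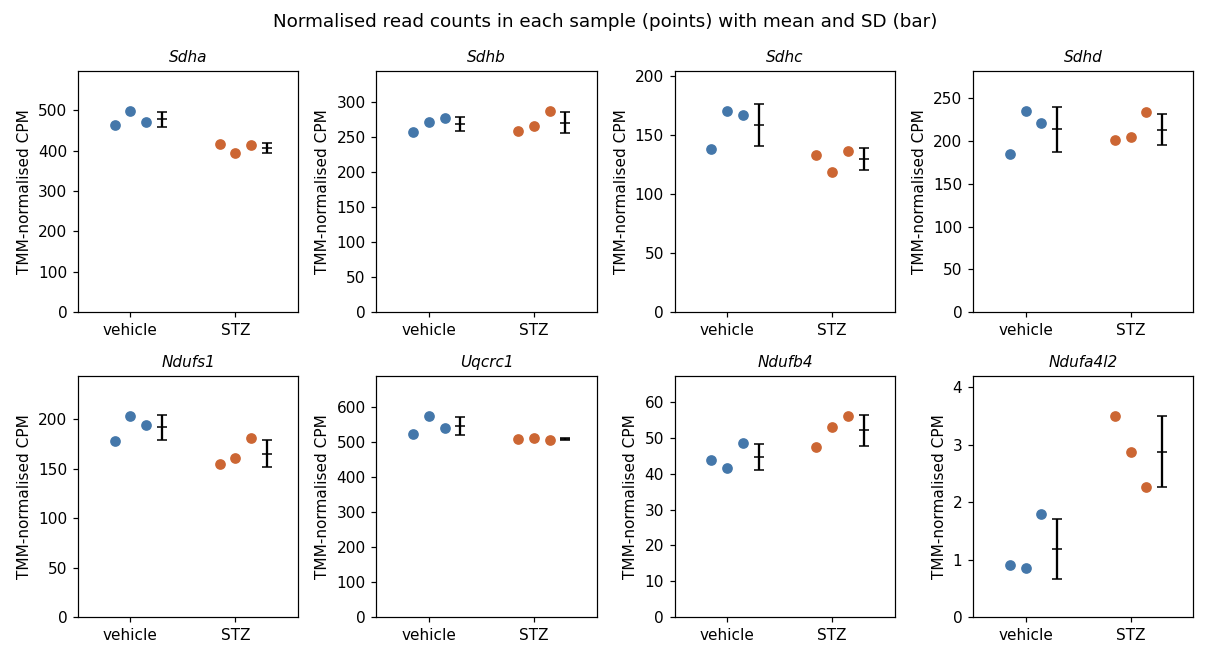
Normalised CPM in each sample (points, vehicle blue and STZ orange) with mean and SD (n = 3) for the complex II genes and for Ndufs1, Uqcrc1, Ndufb4 and Ndufa4l2, each axis starting at 0. Sdha, Sdhc and Uqcrc1 are lower and Ndufa4l2 is higher in every STZ sample than in any vehicle sample, and the other 4 overlap.

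The promoters of the subunit genes are shown because the factor NRF-1 is known to regulate many of them. The RefSeq table (GRCm38.p6) held a window of 250 bases before to 50 bases after the start for 69 of the 84 genes, which did not include Sdhc, Ndufs1 and Ndufa4l2. The letters GCGCATGC of the NRF-1 motif, on either strand, stood in 10 of these 69 genes (14.5%), and in 5.22% of the 12499 protein-coding genes tested that had a window. The ETS motif CCGGAAGT (the family of GABPA) stood in 5 of 69 (7.25%, against 7.67%), and the YY1 motif AAGATGGCG in 7 of 69 (10.1%, against 2.92%). None of the 3 motifs contains another, the NRF-1 letters overlap their own reverse complement, and a match describes letters only. The 250 bases upstream of Sdha, which was lower in STZ, and of Sdhb, which was not, are given 5′ to 3′ on the strand of the gene with any match in capitals. Sdhb held an NRF-1 match 54 bases before its start, and no match to the 3 motifs was found in the Sdha window. The same upstream windows of Sdhd (log2 difference -0.003) and Ndufb4 (0.22) also held no match. A relation between a match and the difference was not tested.
Sdha, chr13:74350241-74350490, minus strand: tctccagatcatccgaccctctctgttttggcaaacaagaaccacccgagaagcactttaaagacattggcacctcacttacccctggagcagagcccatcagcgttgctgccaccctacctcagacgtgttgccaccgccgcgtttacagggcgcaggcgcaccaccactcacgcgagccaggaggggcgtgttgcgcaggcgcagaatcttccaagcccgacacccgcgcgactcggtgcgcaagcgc
Sdhb, chr4:140961021-140961270, plus strand: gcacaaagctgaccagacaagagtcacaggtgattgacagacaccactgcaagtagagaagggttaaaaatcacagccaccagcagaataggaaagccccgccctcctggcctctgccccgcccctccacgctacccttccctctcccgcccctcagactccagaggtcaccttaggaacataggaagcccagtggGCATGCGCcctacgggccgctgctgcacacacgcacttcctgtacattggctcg

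Short stretches around other matches are given for genes of different complexes, with the flanking bases, since the capitals were fixed by the search. Of the NRF-1 matches, the 5 shown begin within 100 bases before the start, and that in Uqcr11 begins at -4 and runs across the start. Those in Cox6a1 and Atp5l lie further upstream, and that in Uqcrc1 lies after the start.
Ndufa6, chr15:82354357-82354384, minus strand: ccgcggtagaGCATGCGCattgcagagc
Ndufa8, chr2:36049329-36049356, minus strand: cgctggagacGCATGCGCagatggtacc
Uqcr11, chr10:80406808-80406835, minus strand: tcgccttcacGCATGCGCtatacgtctg
Atp5g2, chr15:102671070-102671097, minus strand: ctccggccgcGCATGCGCagagccttcc
Atp5k, chr5:108434430-108434457, minus strand: tcactgcggcGCATGCGCctttctggct
All 7 YY1 matches were on the strand of the gene, and 6 of them began 23 to 36 bases after its start.
Ndufc1, chr3:51408915-51408943, minus strand: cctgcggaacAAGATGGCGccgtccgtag
Ndufs7, chr10:80249463-80249491, plus strand: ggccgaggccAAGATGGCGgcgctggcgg
Atp5j2, chr5:145191500-145191528, minus strand: ccaggacttcAAGATGGCGtcactcggtg
The median log2 fold change was 0.04 for the 10 genes with an NRF-1 match and 0.04 for the 59 without. It was 0.05 and 0.04 for the 7 with and the 62 without a YY1 match, and -0.01 and 0.04 for the 5 with and the 64 without an ETS match.

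The 6 nuclear-encoded core subunits of complex I described here, which with mitochondrially encoded subunits form its conserved catalytic core, had a median log2 fold change of -0.04, with 3 above 0, and 30 other subunits with a Nduf symbol (without Ndufa4 and Ndufa4l2) had 0.10. Ndufs1, the largest core subunit (chr1:63143592-63176822), had 178, 203 and 195 CPM in vehicle and 154, 160 and 181 in STZ samples. STZ replicate 3 overlapped the vehicle samples, and the difference was -0.22 ± 0.09 (SE, unadjusted p = 0.0399, adjusted p = 0.422, edgeR). Ndufs8 and Ndufv1 both had a log2 difference of -0.12, neither with an unadjusted p under 0.05. Sdhc and Ndufs1 each overlap another gene with reads (Gm46172 and Ino80dos), which reads of unstated strand may not separate. The core subunits Ndufs3, Ndufs7 and Ndufv2 were at 0.04, 0.05 and 0.14.

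Among the accessory subunits, 24 of 30 had a positive log2 fold change, but 14 of 30 without vehicle replicate 1 and 7 of 30 with an offset for transcript length, described below. Ndufb4, a membrane arm subunit (chr16:37647602-37654368), had 43.8, 41.5 and 48.4 CPM in vehicle and 47.3, 52.8 and 55.9 in STZ samples. STZ replicate 1 lay below vehicle replicate 3, and the difference was 0.22 ± 0.09 (SE, unadjusted p = 0.0453, adjusted p = 0.434, edgeR). Its near-identical copies Ndufb4b and Ndufb4c had 2.18 to 4.14 CPM in all samples, and reads may have been split among the 3 genes. Ndufa6, an accessory subunit of the matrix arm, had 47.0, 56.3 and 61.3 CPM in vehicle and 58.6, 63.7 and 73.8 in STZ samples, and its difference of 0.25 ± 0.12 (SE) had an unadjusted p of 0.0767 (edgeR).

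Ndufa4l2, known as a target of the hypoxia-inducible factor HIF-1 that lowers complex I activity, was the member with the highest fold change (chr10:127509274-127517154). It had 0.914, 0.867 and 1.80 CPM in vehicle and 3.50, 2.87 and 2.26 CPM in STZ samples, so all STZ samples were above all vehicle samples. The log2 difference was 1.27 ± 0.35 (SE), or 2.40-fold, with an unadjusted p of 0.00723 and an adjusted p of 0.302 in edgeR and an adjusted p of 0.0282 in DESeq2. Leaving out each sample in turn kept the log2 difference between 1.07 and 1.68 with an unadjusted p under 0.05 in all 6 fits. Its paralog Ndufa4 had a log2 difference of 0.04 ± 0.15 (SE). Ndufa4l2 made up 0.355%, 0.243% and 0.460% of the summed FPKM of the pair in vehicle and 1.10%, 0.857% and 0.594% in STZ samples. Ndufa4l2 is also known as a transcript of brain pericytes. The pericyte and smooth muscle markers, which did not include it, had 148, 159 and 189 CPM in vehicle and 254, 221 and 189 CPM in STZ samples. Of these 9 markers, 8 had a positive log2 fold change, and 4 were higher at an unadjusted p under 0.05, where 5.63% of all genes were. All 10 endothelial markers were positive, 7 of them with an unadjusted p under 0.05, with sums of 101, 153 and 337 CPM in vehicle and 551, 432 and 318 CPM in STZ samples. In Ndufa4l2 and in both sums, vehicle replicate 3 was the highest vehicle sample and STZ replicate 1 the highest STZ sample. The 6 ependymal markers had the same high samples (79.0, 152 and 221 CPM in vehicle, 287, 224 and 179 CPM in STZ). The 6 neutrophil markers (134, 138 and 771 CPM in vehicle, 967, 1088 and 461 CPM in STZ) shared the highest vehicle sample, and all 6 of each list had a positive log2 fold change. The part of these cell types in the value of Ndufa4l2 was not tested. Cox4i2, also known from pericytes, had 2.31, 2.31 and 2.93 CPM in vehicle and 2.79, 2.27 and 2.21 in STZ samples, with overlapping groups. The gene body of Ndufa4l2 overlaps Shmt2, and the strand of the reads is not stated, so reads of both genes may not be separable there.

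In complex III the median log2 fold change was 0.01, from -0.10 for Uqcrc1 to 0.07 for Uqcr10. Uqcrc1, a core subunit of the matrix side, had 522, 574 and 541 CPM in vehicle and 510, 511 and 507 in STZ samples, and its groups did not overlap. The difference of -0.10 ± 0.07 (SE) had an unadjusted p of 0.208 (edgeR). Uqcrfs1, the Rieske iron-sulfur protein, had -0.04 ± 0.10 (SE). In complex IV the median was 0.02, and no gene had an unadjusted p under 0.05. The highest was Cox7c at 0.15 ± 0.11 (SE), a small structural subunit, and the lowest was Cox7b2 at -0.27 ± 0.25 (SE), which rests on 1.01 to 1.51 CPM. In complex V the median was 0.03, with Atp5g2 highest at 0.20 ± 0.10 (SE, unadjusted p = 0.08, edgeR) and Atp5b lowest at -0.15 ± 0.11 (SE, unadjusted p = 0.243, edgeR). Atp5b had 1606, 1931 and 1794 CPM in vehicle and 1542, 1486 and 1791 in STZ samples. Vehicle replicate 1 and STZ replicate 3 thus stood nearer to the opposite group than to their own.

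The spread within groups had a common pattern across complexes I, III, IV and V. Vehicle replicate 1 had the lowest normalised count of all 6 samples for 61 of the 84 genes, and STZ replicate 3 had the highest for 43. The median deviation of the members from their own mean was -0.24, 0.05 and 0.11 (log2 CPM) in vehicle replicates 1, 2 and 3 and -0.08, -0.02 and 0.18 in STZ replicates 1, 2 and 3. In complexes I, III, IV and V the median was lowest in vehicle replicate 1 (-0.20 to -0.27), and it was highest in STZ replicate 3 in complexes I, III and V, while in complex IV vehicle replicate 3 (0.19) was level with it. The order of the samples between these differed among the complexes. Complex II departed from the pattern, lowest in STZ replicate 2 and highest in vehicle replicate 2. Its medians were -0.06, 0.16 and 0.08 in vehicle and -0.08, -0.11 and 0.01 in STZ replicates 1, 2 and 3. Atp5g1 had 131, 268 and 247 CPM in vehicle and 188, 165 and 240 in STZ samples, lowest in vehicle replicate 1 and highest in vehicle replicate 2. Lowest in the same sample was Ndufa1, a small membrane arm subunit on chromosome X, with 23.3, 39.6 and 50.6 CPM in vehicle and 35.7, 35.8 and 49.6 in STZ samples. Without vehicle replicate 1 the median log2 fold change of the members was -0.07 with 20 of 84 above 0, and without STZ replicate 3 it was -0.04 with 30 above 0. Without vehicle replicate 3 it was 0.13, and 7 members were higher and 1 lower at an unadjusted p under 0.05, where 7.25% and 4.9% of all genes were. The direction of the members as a group therefore depended on single libraries. Sdha stayed below in all 6 of these fits (-0.25 to -0.20), and so did Sdhc (-0.38 to -0.23) and Ndufs1 (-0.29 to -0.17). An unadjusted p under 0.05 (edgeR) was kept in 5 of the 6 fits for Sdha, in 3 for Sdhc and in 2 for Ndufs1.

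**Figure D4:**
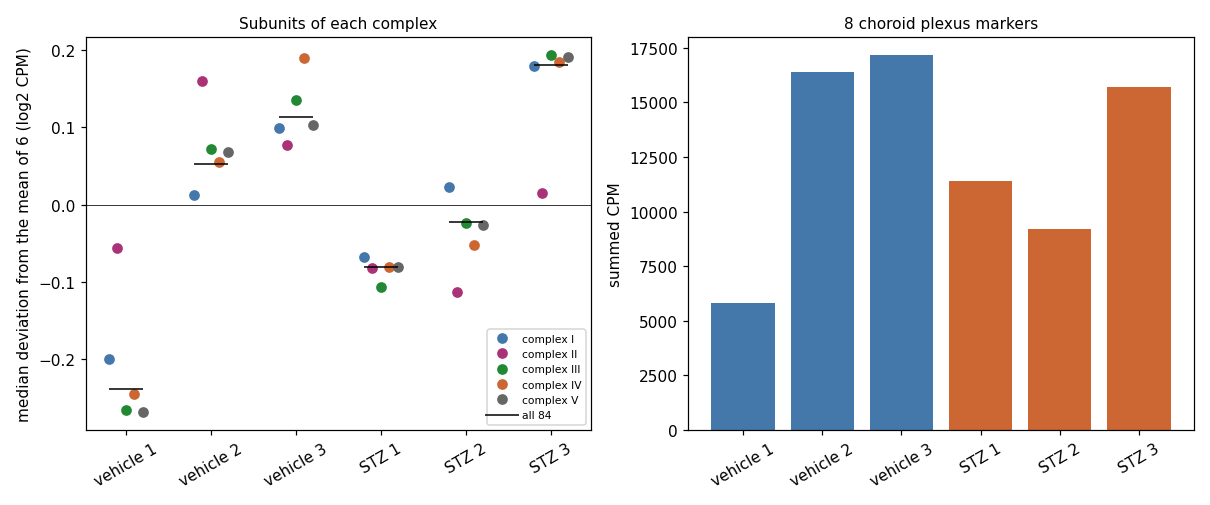
Left, median deviation of the subunits of each complex (points) and of all 84 (bars) from the mean of the 6 samples, in log2 CPM. Right, summed CPM of the 8 choroid plexus markers. For all 84 and for the markers, vehicle replicate 1 is lowest and vehicle replicates 2 and 3 and STZ replicate 3 are the 3 highest.

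The 3 libraries with the highest medians (vehicle replicates 2 and 3 and STZ replicate 3) were also the 3 with the highest summed choroid plexus markers, and vehicle replicate 1 was lowest in both. Vehicle replicate 1 and STZ replicate 1, with the lowest medians, had the highest summed oligodendrocyte markers. These 9 markers had 2712, 1111 and 1052 CPM in vehicle and 3625, 1313 and 1417 CPM in STZ replicates 1, 2 and 3. The part of either cell type in the member levels was not tested. None of the 8 choroid plexus markers had an unadjusted p under 0.05 between the groups, and all 8 were lower in STZ, with a median log2 difference of -0.31. When the mean log2 level of these markers was added to the model, a fit chosen after the data were seen, the median of the members was 0.12 and 66 of 84 were above 0, beside a median of 0.02 for all genes. In that fit 10 members were higher and 3 lower at an unadjusted p under 0.05, where 8.79% and 7.79% of all genes were, and the smallest adjusted p of a member was 0.172 (edgeR). Sdha (-0.21), Sdhc (-0.22) and Ndufs1 (-0.18) were the 3 lower members, and the 10 higher ones included Ndufa4l2 (1.33), Ndufa6 (0.32), Ndufb4 (0.23) and Atp5g2 (0.26).

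Most subunit transcripts are short, with a median length of 744 bases against 2724 bases for all genes with a value, and the log2 fold changes moved with length. Over the 82 members with a matched transcript, the Pearson correlation between log2 length and log2 fold change was -0.33, and it was -0.54 without Ndufa4l2. These points share the same libraries, so the correlation is a description. The 55 members under 1000 bases had a median of 0.07 and the 27 longer ones -0.04. The same gradient was seen over all genes above 1 CPM, with a median of 0.13 for the 982 genes under 1000 bases and -0.01 for the 13154 longer ones. In each length class the median of the members lay below that of all genes, for example at 0.07 against 0.16 between 500 and 700 bases and at -0.07 against 0.03 between 1500 and 2500 bases. The slope of log2 CPM deviation per doubling of length was 0.089, 0.014 and -0.006 in vehicle replicates 1, 2 and 3. In STZ replicates 1, 2 and 3 it was -0.005, -0.048 and -0.043. Without vehicle replicate 1 the medians were 0.07 for the 982 shorter genes and -0.01 for the 13154 longer ones. For the 55 shorter and 27 longer members they were then -0.05 and -0.10. With an offset that removed the relation to length in each sample, the median of the members was -0.10, and 74 of the 84 were below 0, beside a median of 0.00 over all genes. Ndufb4b and Ndufb4c, without a matched transcript, received no offset and stayed at 0.29 and 0.27. Of the 22337 genes, 16533 had a length, and the rest received no offset either. In that fit 10 members were lower and 1 was higher at an unadjusted p under 0.05, where 5.94% and 5.09% of all genes were, and none passed the adjusted threshold. Sdha (-0.23), Sdhc (-0.27), Ndufs1 (-0.23) and Ndufa4l2 (1.15) changed little, while Ndufb4 was at 0.09 with an unadjusted p of 0.33 (edgeR). The lower members also included Ndufs8 (-0.26), Ndufb10 (-0.27), Uqcrc1 (-0.16), Cox6b1 (-0.20) and Cox6a1 (-0.17).

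**Figure D5:**
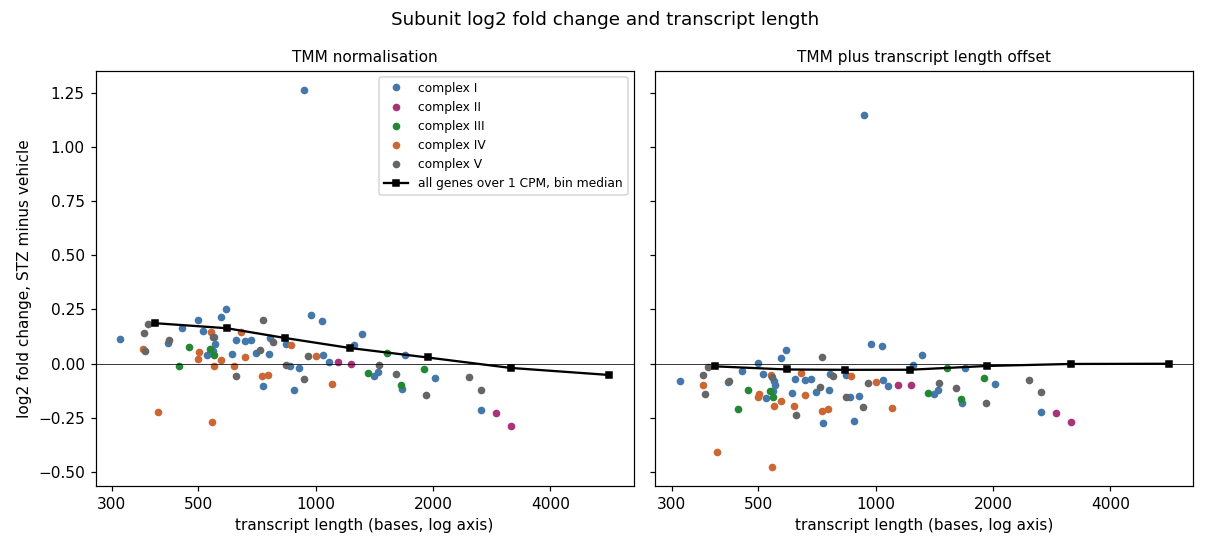
Log2 fold change (STZ minus vehicle) of the members against transcript length in bases (log axis), coloured by complex, with the bin medians of all genes above 1 CPM (black), under TMM normalisation (left) and with a length offset (right). On the left both fall with length, and on the right the medians of all genes lie near 0 and most members lie below it.

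None of the 51 assembly factors of the 5 complexes passed the threshold in edgeR, and none had an adjusted p under 0.05 in DESeq2. Their median log2 fold change was 0.04, with 30 above 0, and 2 were higher and 2 lower at an unadjusted p under 0.05 (5.63% and 5.65% of all genes). The most negative was Sco2, a copper chaperone of complex IV, with 5.26, 6.49 and 3.51 CPM in vehicle and 0.808, 2.35 and 5.29 in STZ samples, which overlapped (-0.85 ± 0.59 SE, adjusted p = 0.609, edgeR). Cox10, which takes part in making heme A for complex IV, was 70.4, 71.0 and 68.5 CPM in vehicle and 72.8, 83.2 and 84.5 in STZ samples (0.20 ± 0.08 SE, adjusted p = 0.408, edgeR), without overlap. Cox16, a factor for the copper site of COX2, was 14.6, 17.3 and 16.7 CPM in vehicle and 18.3, 21.7 and 19.0 in STZ samples (0.28 ± 0.11 SE, adjusted p = 0.428, edgeR), also without overlap. Acad9, a complex I assembly factor, was 64.3, 64.6 and 64.4 CPM in vehicle and 54.5, 59.6 and 54.1 in STZ samples (-0.20 ± 0.07 SE, adjusted p = 0.356, edgeR), with all STZ samples lower. Lrpprc, which stabilises mitochondrial mRNAs, had a difference of -0.32 ± 0.13 (SE, adjusted p = 0.428, edgeR) with overlapping groups. The assembly factors of complex II, Sdhaf1 to Sdhaf4, had a median of 0.09, and those with the smallest p were Sdhaf1 at 0.14 ± 0.12 (SE) and Sdhaf3 at 0.17 ± 0.20 (SE). The 4 remaining nuclear components, which the symbol rule does not cover, were Cyc1 (cytochrome c1 of complex III) at 0.17 ± 0.12 (SE), Ndufab1 (acyl carrier protein) at 0.06 ± 0.10 (SE), Cycs (cytochrome c) at -0.10 ± 0.15 (SE) and Atpif1 (the ATPase inhibitor) at 0.13 ± 0.17 (SE).

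The 13 mitochondrially encoded subunits had a median of 0.08 with 9 above 0, and the STZ samples lay above the vehicle samples for 4 of them, ND3, COX1, COX2 and ATP6, where 8.64% of all genes did so. ND3 of complex I had 9.38, 10.6 and 16.9 CPM in vehicle and 17.1, 18.3 and 19.9 in STZ samples (0.59 ± 0.22 SE, unadjusted p = 0.029, adjusted p = 0.397, edgeR), while the other subunits of complex I in that genome ranged from -0.17 for ND4L to 0.08 for ND6. COX1, COX2 and COX3 of complex IV were at 0.14, 0.14 and 0.11, CYTB of complex III at 0.04, and ATP6 and ATP8 of complex V at 0.18 and 0.22. The libraries were selected for polyadenylated RNA, and neighbouring genes of that genome overlap, so levels among them are less certain. Of the 18 regulators of mitochondrial gene expression, 12 were below 0 with a median of -0.10. Esrra, the estrogen-related receptor that drives oxidative phosphorylation genes, had 25.6, 28.3 and 23.8 CPM in vehicle and 21.9, 18.7 and 22.9 in STZ samples (-0.29 ± 0.11 SE, unadjusted p = 0.033, adjusted p = 0.405, edgeR). Twnk, the mitochondrial DNA helicase, had -0.27 ± 0.13 (SE, adjusted p = 0.476, edgeR). The 12 outer membrane and import genes had a median of 0.08, and Tomm40, the import pore, and Vdac1, the outer membrane channel, had -0.12 ± 0.07 and -0.15 ± 0.09 (SE). The 78 mitochondrial ribosomal protein genes had a median of 0.09 with 63 above 0, and 6 were higher at an unadjusted p under 0.05, where 5.63% of all genes were. With the length offset their median was 0.01 with 40 above 0 and 2 higher, where 5.09% of all genes were. The 84 cytosolic ribosomal protein genes had a median of 0.24 with 82 above 0 and 23 higher (5.63% of all genes). With the length offset it was 0.09 with 11 higher, where 5.09% of all genes were. Without vehicle replicate 1 it was 0.12, and without vehicle replicate 3 it was 0.32 with 46 higher, where 7.25% of all genes were. No gene of these lists passed the threshold in edgeR. DESeq2 gave an adjusted p under 0.05 for 2 mitochondrial and 1 cytosolic ribosomal protein genes, and for 2.08% of the genes it adjusted.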

How the data were processed

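RNA sequencing of sorted tdTomato-positive cells was compared between 3 STZ and 3 vehicle samples, grouped by their labels. Per the labels and the study's methods, the authors used HISAT2 (2.1.0) for alignment to mm10 and StringTie (2.1.3b) for quantification. The deposited count values are unnormalized reads per gene in whole numbers, and the deposited FPKM and TPM values were made by the authors. An undescribed removal of outlier genes by the authors was not repeated.

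The subunits, lists and tests were chosen with earlier results of these data known. For 22337 genes with reads in all 6 samples, edgeR 4.0.16 (R 4.3.3) was run on the counts (TMM, quasi-likelihood, group as the only factor, two-sided, Benjamini-Hochberg over all genes), after a test on simulated data. A gene was called where its adjusted p was under 0.05 and its fold exceeded 1.5. Fold changes use CPM and levels between genes use FPKM. At these depths 3 counts equal 0.0511 to 0.0571 CPM, which covers counting error only. Named were members with an unadjusted p under 0.05 or non-overlapping groups, the highest and lowest of each complex by level and by fold change, isoform pairs and core subunits. Ndufa1, Ndufa6 and the examples given under other settings include genes picked after their values were seen. A member that stays in all counts is not reported here by itself. Of the members, 27 overlap another gene with reads. Transcript lengths came from GENCODE vM21 transcripts. Alternatives were DESeq2 1.42.0, limma 3.58.1 on TPM, other normalizations and filters, a replicate block, length and GC offsets, and leaving out samples.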

Additional observations from a re-analysis of the deposited data

How the results depend on the processing

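No subunit was called in any edgeR or limma setting, and DESeq2 called 1, Ndufa4l2. The number of genes called was 5, and it was 234 with DESeq2, 3 with upper quartile factors, 10 with robust fitting, 0 with limma on log2(TPM + 1) and on log2(TPM + 0.1), and between 0 and 1 when 1 sample was left out (1 without vehicle replicate 3). Of the members, 5 had an unadjusted p under 0.05 (edgeR), beside 11.28% of all genes. With the length offset 11 members had one, beside 11.03% of all genes. When 1 sample was left out, between 1 (without STZ replicate 2) and 8 members (without vehicle replicate 3) had one. In these 2 fits 7.58% and 12.15% of all genes had one. Without vehicle replicate 2 it was 3 members, beside 8.47% of all genes. Of 36 named subunits, 13 changed sign with the length offset, 12 without vehicle replicate 1 and 13 without STZ replicate 3, and Cox6a1 (-0.17 with the length offset) was the only one of these to do so with an unadjusted p under 0.05 in either fit. The median of the members ranged from -0.10 (length offset) to 0.13 (without vehicle replicate 3). Chosen after seeing the data were a GC content offset (median 0.04) and the choroid plexus covariate. The covariate fit gave 13 genes called and 13 members with an unadjusted p under 0.05, where 16.6% of all genes had one. The cause of these changes was not tested. With Ndufa4 and Ndufa4l2 counted in complex IV its median was 0.03, and that of complex I stayed at 0.09.

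Same-numbered samples did not deviate together (correlations -0.10, -0.16 and -0.18), so these values showed no pairing by replicate number. With 3 samples a group they cannot exclude one. With the replicate number as a block, 0 genes were called, and 5 members were higher and 2 lower at an unadjusted p under 0.05, beside 8.03% of all genes in either direction. With 3 samples a group, and Ndufa4l2, Cox4i2 and Cox7b2 under 4 CPM, differences in the rarest members below their intervals were not detectable at this depth.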
